A study of Mus musculus with 6 samples.

Results

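Csn3 and Gfra1 are 2 of the 1653 genes listed in each of 6 RNA-seq libraries of mouse embryonic stem cells. They were chosen by name, because their raw counts are low in every wild-type library and nearly equal in the 3 Yaf2KO libraries, so the difference between the genotypes and its evenness are given below as descriptions with no test. The libraries are 3 of Yaf2KO cells, made with Cas9, and 3 of wild-type cells. All are labelled strain C57BL/6 and were grown with serum and leukemia inhibitory factor on mouse embryonic fibroblasts inactivated with mitomycin-C. The fibroblasts are feeder cells whose RNA can enter the extract. No label says whether the Yaf2KO libraries come from 1 clone or several, or whether replicates are separate cultures. Yaf2 is not among the rows used here, so the knockout label was not checked against its own transcript.

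Kappa-casein, the product of Csn3, is a milk protein that coats the surface of the casein micelle and keeps it in suspension. Its gene lies at one end of a cluster of casein genes that are active in the lactating mammary gland, where prolactin acts through STAT5. Gfra1 encodes a co-receptor anchored to the cell surface that binds glial cell line-derived neurotrophic factor (GDNF) and passes the signal to the receptor tyrosine kinase RET. It is known from the developing kidney, enteric and motor neurons, and spermatogonial stem cells. YAF2, whose gene is labelled as knocked out, was named as a partner of the transcription factor YY1 and belongs to variant forms of Polycomb repressive complex 1, which mark histone H2A at silent developmental genes.

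In mm10 coordinates, Csn3 (ENSMUSG00000001622) lies on chromosome 5 from 87925579 to 87932665 on the plus strand. It spans 7087 bases and has 6 annotated transcripts, 3 of them coding. Gfra1 (ENSMUSG00000025089) lies on chromosome 19 from 58235604 to 58455909 on the minus strand. It spans 220306 bases and has 9 annotated transcripts, 8 of them coding. The deposited annotation gives Csn3 the kappa-casein domain and 3 Gene Ontology terms, and Gfra1 the GDNF domain and 8 terms, of which 0 are shared. Each count is a sum over the whole gene and does not tell transcripts or exons apart. An antisense gene overlaps each of them, 1700066N21Rik at Csn3 with 0 shared exon bases and Gm16277 at Gfra1 with 416 shared exon bases. No strand setting is given in the sources used here, so reads in the shared part of Gfra1 cannot be assigned to one gene or the other.

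The promoter of Gfra1 is shown because YY1, the partner that gave YAF2 its name, has a known short motif that can be looked for in it. RefSeq gives 300 bases around a start site of Gfra1, 250 before and 50 after, at chr19:58455349-58455648 on the minus strand (GRCm38.p6). The annotated transcripts of Gfra1 begin at several sites. The window's start site, 58455398, is that of 1 coding transcript and lies 511 bases inside the outermost annotated start, 58455909, so the window lies within the gene coordinates above. Capitals mark the match to the YY1 motif CCATNTT.
Gfra1 promoter: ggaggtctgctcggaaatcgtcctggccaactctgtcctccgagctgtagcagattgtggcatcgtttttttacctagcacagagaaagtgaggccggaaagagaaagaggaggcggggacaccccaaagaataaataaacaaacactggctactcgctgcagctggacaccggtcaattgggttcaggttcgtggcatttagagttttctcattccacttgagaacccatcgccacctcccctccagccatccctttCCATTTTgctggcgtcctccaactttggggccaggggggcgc
The match covers bases 259 to 265 of the window, just after this start site, and 16.1% of the 32851 RefSeq promoters hold at least 1 match on either strand. The E-box CANNTG matched 3 times (72.3% of promoters hold it) and CCAAT matched 1 time on the opposite strand (37.4%), overlapping the E-box at bases 176 to 181. TATAAA (13.6% of promoters) and the STAT motif TTCNNNGAA (8.30%) had 0 matches in this window. The window holds 12 CpG dinucleotides, against a median of 7 over all promoters, and 60.4% of promoters hold fewer. These matches are letters in a sequence, and binding was not measured. Of the 2 genes 1 had a promoter entry, and Csn3 is named only.

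Both genes had few reads in wild type and over 100 in each Yaf2KO library. Csn3 had 136, 162 and 134 counts in Yaf2KO 1, 2 and 3, against 3, 3 and 5 in wild type 1, 2 and 3. The lowest Yaf2KO count was 26.8 times the highest wild-type count, and the groups did not overlap. The mean was 144 ± 15.6 counts in Yaf2KO and 3.67 ± 1.15 in wild type (SD, n = 3 each), a ratio of 39.3. The 95% Poisson intervals, which cover counting error only, ran from 112 to 189 over the Yaf2KO libraries and from 0.619 to 11.7 over the wild-type ones. They overlapped between any pair of Yaf2KO libraries. The wild-type intervals are wide, so the size of the ratio rests on 11 reads in all.

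Gfra1 had 213, 266 and 258 counts in Yaf2KO 1, 2 and 3, against 11, 10 and 16 in wild type 1, 2 and 3. These groups did not overlap either, with the lowest Yaf2KO count 13.3 times the highest wild-type count. The mean was 246 ± 28.6 counts in Yaf2KO and 12.3 ± 3.21 in wild type (SD, n = 3 each), a ratio of 19.9. Yaf2KO 1 was the lowest of its group for Gfra1 and the middle one for Csn3. In bulk RNA a larger number of expressing cells and more RNA per cell cannot be told apart.

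**Figure D1:**
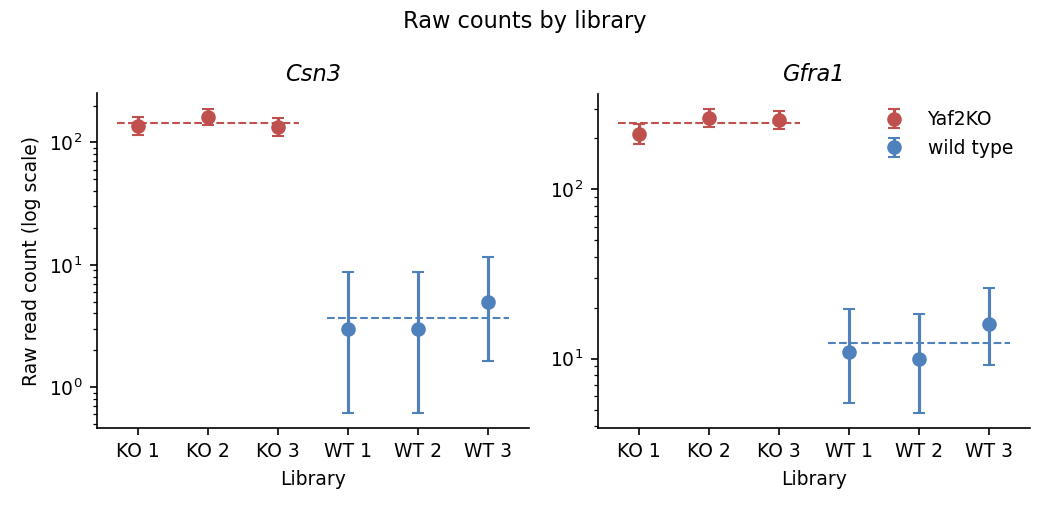
Raw counts of Csn3 and Gfra1 (log axes) in the 3 Yaf2KO (KO) and 3 wild-type (WT) libraries. Points are counts, bars are 95% Poisson intervals and dashed lines are group means; the Yaf2KO points lie between 134 and 162 for Csn3 and between 213 and 266 for Gfra1, above all wild-type points.

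Higher raw counts were common in the list, so the separation of the groups has to be read against it. In 453 of the 1653 listed genes (27.4%) the lowest Yaf2KO count exceeded the highest wild-type count, and in 0 (0%) the highest Yaf2KO count was under the lowest wild-type count. Both genes are among the 453 by the way they were chosen. The listed genes together summed to between 143682 and 451075 counts in Yaf2KO and between 56367 and 72975 in wild type, a ratio of means of 4.34. They are a part of each library, and depth was not used here. The ratios of 39.3 and 19.9 are therefore larger than that of the list as a whole, and how much of each is depth cannot be told from these rows.

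The evenness in Yaf2KO held on the scale of raw counts and not relative to the listed total. The listed total differed 3.14-fold between the highest and the lowest Yaf2KO library, with Yaf2KO 1 the highest and Yaf2KO 3 the lowest. Relative to it, Csn3 came to 302, 645 and 933 counts per 1000000 listed counts (listed CPM) in Yaf2KO 1, 2 and 3, against 45.7, 53.2 and 68.5 in wild type 1, 2 and 3. Yaf2KO 3 was 3.09 times Yaf2KO 1 on this scale, whereas the raw counts differed by at most 1.21-fold. Each Yaf2KO library stood above the wild-type mean, by 5.40-fold in Yaf2KO 1, 11.6-fold in Yaf2KO 2 and 16.7-fold in Yaf2KO 3.

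Gfra1 came to 472, 1059 and 1796 listed CPM in Yaf2KO 1, 2 and 3, against 168, 177 and 219 in wild type 1, 2 and 3. Its highest Yaf2KO value was 3.80 times the lowest, against 1.25 times in raw counts. Yaf2KO 1, the closest to wild type, was 2.51-fold above the wild-type mean and Yaf2KO 3 was 9.55-fold above it. The groups stayed apart for both genes on this scale too. This follows from the raw counts that chose them, whose gap between the groups is wider than the range of the listed totals, and adds no support. In listed CPM 65 of the 1653 genes (3.93%) had separate groups with Yaf2KO higher, and 43 (2.6%) had separate groups with Yaf2KO lower.

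**Figure D2:**
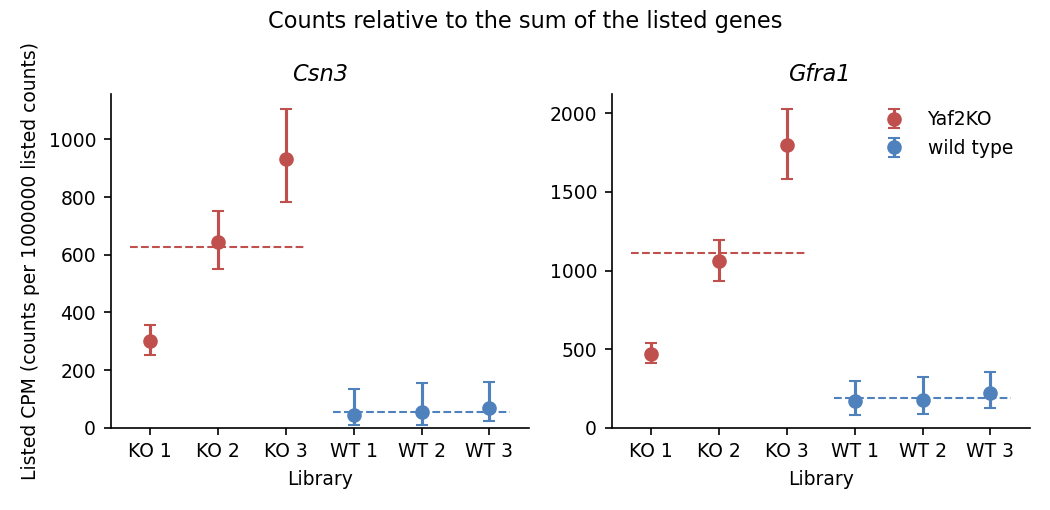
Listed CPM of Csn3 and Gfra1 in each Yaf2KO (KO) and wild-type (WT) library. Points are values, bars are 95% Poisson intervals of the count on this scale and dashed lines are group means; Yaf2KO 3 is the highest (933 for Csn3, 1796 for Gfra1) and Yaf2KO 1 the lowest of its group (302 and 472).

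The position of a gene within its own library needs no scaling. Csn3 ranked 237, 144 and 111 of the listed genes by count in Yaf2KO 1, 2 and 3, against 482, 416 and 475 in wild type 1, 2 and 3. Gfra1 ranked 183, 109 and 76 in Yaf2KO 1, 2 and 3, against 273, 257 and 245 in wild type 1, 2 and 3. Both genes thus stood higher in the list in every Yaf2KO library than in any wild-type library, and highest in Yaf2KO 3. These ranks are of counts per gene, with no correction for length. They come from the counts that chose the genes, so they are no separate support. The place in Yaf2KO 3 goes with level counts and the lowest listed total. Tied genes share the best rank: in wild type 1, where Csn3 ranked 482, 66.0% of listed genes had fewer reads.

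The ratio of the 2 genes inside a library is also free of depth. There were 1.57, 1.64 and 1.93 Gfra1 reads for each Csn3 read in Yaf2KO 1, 2 and 3, against 3.67, 3.33 and 3.20 in wild type 1, 2 and 3. Summed over the libraries the ratio was 1.71 in Yaf2KO (95% exact binomial interval 1.51 to 1.93) and 3.36 in wild type (1.68 to 7.31). The Yaf2KO ratios lay below all wild-type ratios, but the intervals of single wild-type libraries, which hold 3 to 5 Csn3 reads, include the Yaf2KO ratios. The intervals treat reads as independent.

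**Figure D3:**
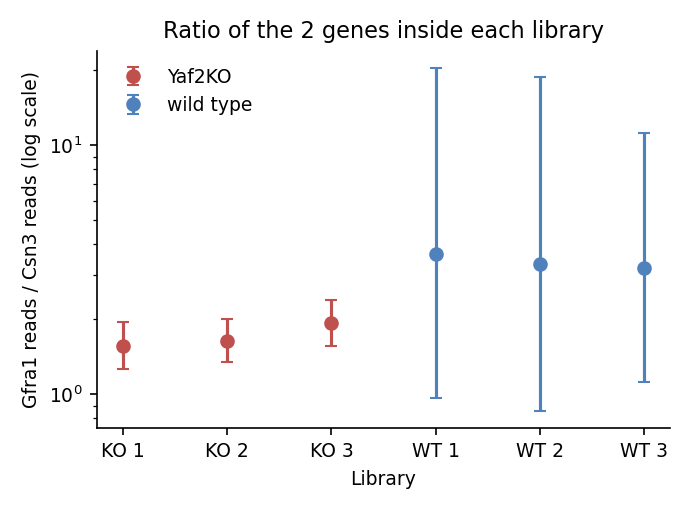
Gfra1 reads divided by Csn3 reads in each Yaf2KO (KO) and wild-type (WT) library, on a log axis. Points are ratios and bars are 95% exact binomial intervals; the Yaf2KO ratios lie between 1.57 and 1.93 and the wild-type ratios between 3.20 and 3.67, with overlapping intervals.

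Levels of the 2 genes can be set side by side only per length, and the order depends on the length taken. Per kilobase of all annotated exons (4152 bases for Csn3, 5476 for Gfra1), Csn3 averaged 34.7 raw counts in Yaf2KO and 0.883 in wild type. Gfra1 averaged 44.9 in Yaf2KO and 2.25 in wild type on that measure. Per kilobase of the longest coding transcript (1596 bases for Csn3, 4641 for Gfra1), Csn3 averaged 90.2 in Yaf2KO and 2.30 in wild type. Gfra1 averaged 52.9 in Yaf2KO and 2.66 in wild type there, so in Yaf2KO the order of the genes turned round.

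Both genes were chosen for even Yaf2KO raw counts, so a low rank in spread was fixed in advance and only places them among the others. Among 194 listed genes with a Yaf2KO mean of at least 50 counts and at least 4 times the wild-type mean, the coefficient of variation (CV) over the 3 Yaf2KO counts had a median of 84.3% and ran from 5.41% to 173%. Csn3 had 10.8% and Gfra1 11.6%, ranking 2 and 4 from the lowest. A CV under 25% was found in 12 of the 194 genes. The lowest was Plce1, a phospholipase C, with 146, 131 and 139 counts in Yaf2KO against 30, 23 and 32 in wild type (CV 5.41% in Yaf2KO). Next after them came Sulf1, a sulfatase that trims heparan sulfate, at 12.5% and Gsap, a gamma-secretase activating protein, at 14.3%. A predicted gene lay between Csn3 and Gfra1. Yaf2KO 1 was the highest Yaf2KO library in 161 of the 194 genes, Yaf2KO 2 in 29, Csn3 and Gfra1 among them, and Yaf2KO 3 in 4. The median gene had 4.96 times as many reads in Yaf2KO 1 as in Yaf2KO 3, whereas Csn3 had 1.01 times and Gfra1 0.826 times as many.

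In listed CPM the CV over the Yaf2KO libraries was 50.4% for Csn3 and 59.8% for Gfra1, close to the median of the 194 genes, 53.7%. In order of this CV they were 90th and 117th from the lowest. Both were chosen for level raw counts, so this CV mostly reflects the differing listed totals. Plce1, the most even gene in raw counts, had 54.6% here. The closeness to the median and the 2 ranks are therefore no trait of the genes. For 40 of the 194 genes the CV was lower in raw counts than in listed CPM. By the ratio of raw means Csn3 was 6th and Gfra1 13th among the 194, whose median ratio was 5.70 and highest 63.6.

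**Figure D4:**
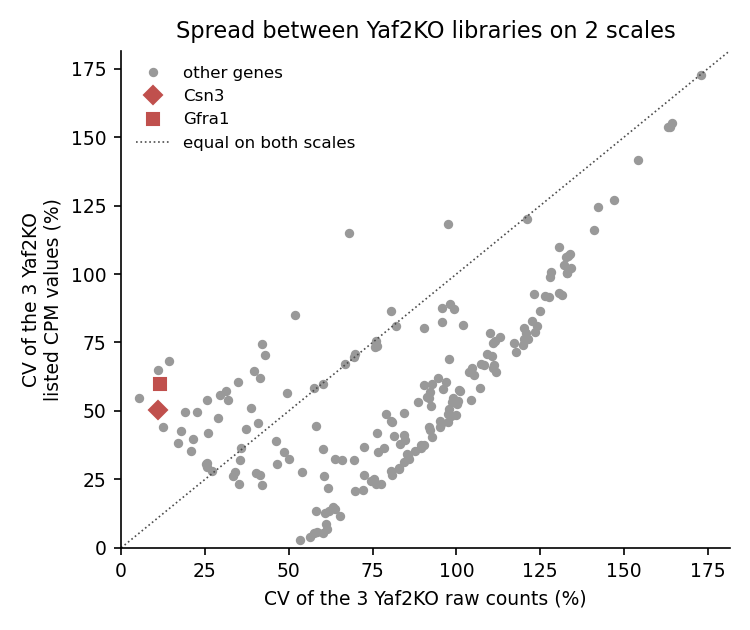
CV of the 3 Yaf2KO raw counts (x axis) against the CV of the same libraries in listed CPM (y axis), in percent, for 194 listed genes with higher counts in Yaf2KO. Each point is a gene and the dotted line marks equal values; Csn3 (10.8% and 50.4%) and Gfra1 (11.6% and 59.8%) lie at the left, above the line.

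The fit over all listed genes sets the typical listed gene near 0 (median log2 fold change -0.03 over 376 tested genes, with trimmed mean of M-values factors on the listed counts). On that scale the log2 fold change was 3.49 (SE 0.67) for Csn3 and 2.58 (SE 0.62) for Gfra1, ranking 2 and 7 from the highest of the 376. No p is given for either gene, and their ranks and SEs are no test, because these counts chose them. By edgeR's quasi-likelihood test with Benjamini-Hochberg adjustment 3 of the 376 genes (0.798%) were called higher and 0 (0%) lower at an adjusted p under 0.05, and 16 had an unadjusted p under 0.05. With DESeq2 10 were called and with limma-voom 0. These shares are the background for the pathway genes below.

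The genes whose raw counts most resembled Csn3 over the 6 libraries were Gfra1 (Pearson's r of log2(count + 1) 0.999), Sulf1 (0.997), Plce1 (0.993), St8sia2, a polysialic acid transferase (0.985), and Tmem141, a transmembrane protein gene (0.985). For Gfra1 they were Csn3, then Sulf1 and Plce1 (0.994 each), St8sia2 (0.989) and Tmem141 (0.983), so 4 further genes were in both lists. The points are 2 genotypes set apart, which share the depth of their libraries, and r follows mostly from that gap. Csn3 and Gfra1 were also chosen for the same raw profile, so a high r between them follows from the choice on either scale. Of the 313 genes compared 84 had an r over 0.9 with Csn3 and 76 with Gfra1, with medians of 0.81 and 0.79. In listed CPM r was 0.986 between Csn3 and Gfra1. With Csn3 it was then 0.805 for Sulf1, 0.570 for Plce1, 0.349 for St8sia2 and 0.899 for Tmem141.

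The 4 resembling genes had a smaller difference between the genotypes. Sulf1 had 1619, 1743 and 1359 counts in Yaf2KO against 256, 233 and 268 in wild type, a ratio of means of 6.24 in raw counts and 1.71 in listed CPM. St8sia2 had 35, 39 and 47 counts in Yaf2KO against 10, 9 and 9 in wild type. Tmem141 had 167, 108 and 126 in Yaf2KO against 18, 13 and 18 in wild type. In listed CPM the ratio was 1.39 for Plce1, 1.29 for St8sia2 and 2.23 for Tmem141, against 11.2 for Csn3 and 5.90 for Gfra1.

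**Figure D5:**
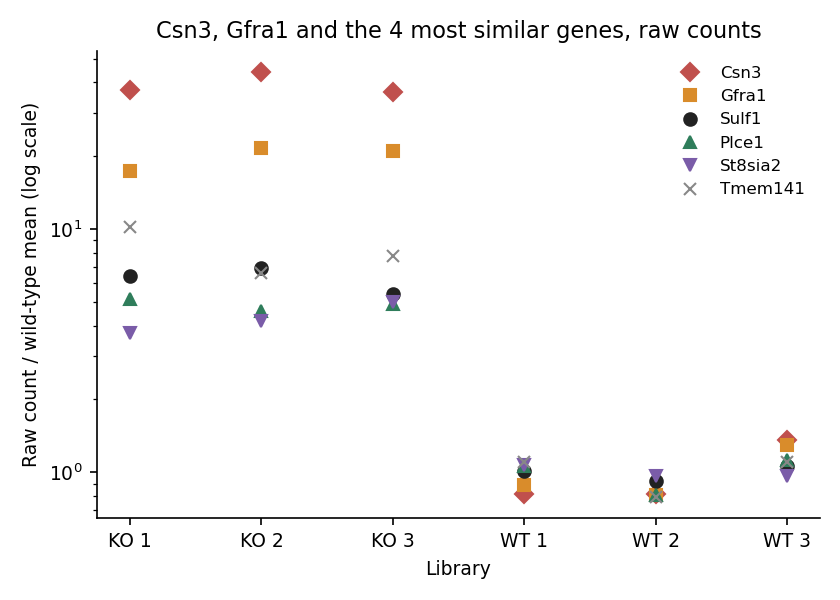
Raw counts of Csn3, Gfra1 and the 4 genes most like both, each divided by its own wild-type mean (log axis), in the Yaf2KO (KO) and wild-type (WT) libraries. Each marker is 1 gene in 1 library; the Yaf2KO counts average 39.3 times the wild-type mean for Csn3, 19.9 times for Gfra1 and between 4.32 and 8.18 times for the other genes.

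Most of the pathway around each gene is outside the rows used here. Of 5 GDNF family ligands 0 are among the listed genes, and of 10 receptors and co-receptors Gfra1 is the only one, so Ret and Gdnf were not analysed here. Of 12 RET adaptors and targets 1 is listed, Dok5, an adaptor that binds RET. Dok5 had 29, 17 and 36 counts in Yaf2KO against 9, 2 and 2 in wild type, with no overlap between the groups in raw counts, as in 27.4% of listed genes. In listed CPM the groups overlapped (64.3 to 251 in Yaf2KO, 27.4 to 137 in wild type), and Dok5 had too few reads to be tested.

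Around Csn3 the picture is as thin. Of 15 casein cluster and milk protein genes 2 are listed, Csn3 and Muc1, a mucin of epithelial surfaces and milk fat globules. Muc1 had 51, 58 and 37 counts in Yaf2KO against 12, 13 and 10 in wild type. Muc1 was not called by edgeR (adjusted p = 0.95), with a log2 fold change of 0.15 and an SE of 0.57, and relative to the list it lay near the typical gene. The raw counts of Muc1 did not overlap between the genotypes, as in 27.4% of listed genes. Of 14 prolactin and STAT5 pathway genes 0 are listed.

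The neighbourhoods of the genes hold few listed rows. Within 500 kb of Csn3 the annotation has 41 genes, 22 of them protein-coding, among them Csn1s1, Csn2, Csn1s2a, Csn1s2b and Odam. Of these 41 genes 2 are listed, with at most 10 counts in any library. Gm11115 had 2, 3 and 2 counts in Yaf2KO against 1, 0 and 0 in wild type, and Gm42164 had 10, 5 and 0 in Yaf2KO against 0, 1 and 0 in wild type. The other casein genes were not analysed here, so Csn3 cannot be compared with its cluster. Within 500 kb of Gfra1 there are 18 annotated genes, 8 of them protein-coding, and 0 are listed.

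Gfra1 is also a marker of spermatogonial stem cells. Of 20 symbols 9 are listed, Gfra1 included. The other 8 all had more reads in Yaf2KO, as had 92.2% of listed genes, and 4 of the 8 had no overlap in raw counts, against 27.4% of listed genes. Of the 8 genes 3 could be tested, with 0 called in either direction (median log2 fold change 0.18, against -0.03 over all tested genes). The transcription factor Pou3f1 had 3479, 1682 and 1780 counts in Yaf2KO against 635, 576 and 659 in wild type (edgeR adjusted p = 0.95, log2 fold change -0.09, SE 0.35). Stra8, a gene of meiotic entry, had 221, 113 and 41 in Yaf2KO against 20, 16 and 34 in wild type (edgeR adjusted p = 0.95, log2 fold change 0.18, SE 0.49). T, a mesoderm transcription factor and the third tested gene, had 20, 140 and 38 in Yaf2KO against 8, 7 and 4 in wild type (edgeR adjusted p = 0.95, log2 fold change 1.55, SE 0.86). Among the Yaf2KO libraries Pou3f1, Stra8, Nanos3 (47, 22 and 11 counts) and Nanos2 (2, 0 and 0) were highest in Yaf2KO 1. T and Lhx1 were lowest there and highest in Yaf2KO 2. Lhx1 had 3, 24 and 7 counts in Yaf2KO against 4, 1 and 0 in wild type. Pax7 (5, 7 and 1) was highest in Yaf2KO 2, and Zbtb16 (7, 7 and 3) was level in Yaf2KO 1 and 2. Gfra1 itself had 266 counts in Yaf2KO 2 and 258 in Yaf2KO 3, and in listed CPM it was highest in Yaf2KO 3 (1796).

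Markers of the cells in the culture also differed among the libraries. Embryonic stem cell markers were present, with 7 of 16 symbols listed, all with reads in every library, whereas Pou5f1 and Sox2 are not among the rows used here. The listed markers summed to 93228, 60739 and 37305 listed CPM in Yaf2KO 1, 2 and 3 and to between 59326 and 62871 in wild type. Csn3 and Gfra1 ran in the opposite order on that scale in Yaf2KO. This order cannot be read as a relation, because both were chosen for level raw counts and the marker reads are part of the listed total. Nanog held 20052 of the 42053 marker reads in Yaf2KO 1. Klf4 was at 3529 to 11247 listed CPM in Yaf2KO against 1668 to 2256 in wild type. Its groups did not overlap on that scale, with Yaf2KO higher, as in 3.93% of listed genes. The other markers overlapped between the genotypes in listed CPM. Klf4 was not called (edgeR adjusted p = 0.18, log2 fold change 1.61, SE 0.45). Of the 7 listed markers 0 were called, with a median log2 fold change of -0.09 against -0.03 over all tested genes. Feeder fibroblast markers had 4 of 20 symbols listed. They summed to 6937, 43211 and 23635 listed CPM in Yaf2KO 1, 2 and 3 and to between 14759 and 25109 in wild type, so Yaf2KO 1 was the lowest of all 6 libraries for them. Most of that sum is Tagln, with 2493, 7092 and 2428 counts in Yaf2KO against 1200, 900 and 780 in wild type. In raw counts Tagln, Acta2 and Col1a1 were each higher in Yaf2KO 1, which has the highest listed total, than in any wild-type library. For Col1a1 the gap was small, 290 counts against at most 285. In listed CPM each was lower in Yaf2KO 1 than in any wild-type library. Tagln was at 5527 there against at least 10689, Acta2 at 767 against at least 1192 and Col1a1 at 643 against at least 2878. Postn was near the floor, with 0, 12 and 1 counts in Yaf2KO against 3, 3 and 0 in wild type.

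Markers of other cell types that could carry the genes are only partly among the rows used here. Of 12 mammary epithelium markers 1 is listed, the keratin gene Krt14, with 20, 127 and 65 counts in Yaf2KO against 21, 9 and 15 in wild type (edgeR adjusted p = 0.95, log2 fold change 0.57, SE 0.80). Its counts overlapped between the genotypes, with Yaf2KO 1 below wild type 1 and the other Yaf2KO libraries above all wild-type ones. Neural crest and neuron markers had 4 of 11 symbols listed. They summed to 5161, 14104 and 12096 listed CPM in Yaf2KO 1, 2 and 3 and to between 7592 and 12667 in wild type. Most of that sum is Nes, an intermediate filament gene (log2 fold change -0.13, SE 0.43). Of the 4 genes 3 could be tested and 0 were called, with a median log2 fold change of 1.63 against -0.03 over all tested genes. Stmn4, a neuronal stathmin gene, had 152, 312 and 224 counts in Yaf2KO against 16, 35 and 14 in wild type (edgeR adjusted p = 0.95, log2 fold change 1.63, SE 0.69). Nefm, a neurofilament gene, had 279, 175 and 5 in Yaf2KO against 10, 6 and 3 in wild type (edgeR adjusted p = 0.95, log2 fold change 2.15, SE 0.92). Stmn4 did not overlap between the genotypes in raw counts, as in 27.4% of listed genes, and Nefm did through Yaf2KO 3. In listed CPM Stmn4 overlapped too (337 to 1559 in Yaf2KO, 192 to 621 in wild type). The part of any of these cell types in the Csn3 and Gfra1 counts was not tested.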

How the data were processed

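The authors deposited raw read counts per gene, 1 table per library, per the file headers, with mm10 coordinates. HTSeq 0.6.0, TopHat2 2.0.12 and Cufflinks 2.2.1 were used, per the submitters' processing notes, which give no roles. Per the labels' protocols, poly-T selected RNA was made into libraries with a NEBNext Ultra kit. Groups and replicate numbers came from the titles. Each table holds the same 1653 genes, and the sources used here do not say how the genes were picked. Their sum (56367 to 451075) is not the depth, so scaled values are relative to that sum.

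The whole table was fitted with edgeR 4.0.16 (R 4.3.3; filterByExpr, TMM, robust quasi-likelihood, Benjamini-Hochberg adjustment) and tested on simulated data. Each SE is the absolute log2 fold change divided by the square root of the quasi-likelihood F statistic. DESeq2 1.42.0, limma 3.58.1, other scalings, no filter and left-out libraries were alternatives. Poisson and exact binomial intervals (95%) used scipy 1.17.1 with Python 3.11.15; numpy 2.4.6, pandas 2.3.3 and matplotlib 3.10.9 were also used. Annotation was GENCODE vM21, which gives both genes the deposited coordinates.

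The genes and lists were chosen with earlier results of these data known. Named besides Csn3 and Gfra1 are up to 4 called members of each pathway list or, with 0 called, the 2 with the most reads, the 5 genes with the highest r for each gene and the 5 with the lowest CV (regular symbols), and listed neighbours. Members of marker lists, and spermatogonial genes other than Pou3f1 and Stra8, were named after their values were seen. Libraries of 1 genotype differed by more than sampling noise in every pair (lowest chi-square 5.01 for each degree of freedom, over genes with 20 or more reads), so p-values measure the spread between these libraries, which may be technical.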

Additional observations from a re-analysis of the deposited data

How the results depend on the processing

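The log2 fold change of Csn3 and Gfra1 stayed positive under each of the 14 alternatives run and moved by less than 1 SD between libraries in 13 of them. The exception was equal depth, which leaves the common shift of the list in place, with 5.25 for Csn3 and 4.30 for Gfra1, where the median tested gene stood at 2.12. In the other alternatives that median lay between -0.13 and 0.20. Leaving out single libraries gave 3.05 to 3.82 for Csn3 and 2.01 to 2.95 for Gfra1; the lowest values came without Yaf2KO 3 and the highest without Yaf2KO 1. The ratio of the highest to the lowest Yaf2KO value was 3.09, 3.61 and 3.55 for Csn3 and 3.80, 4.43 and 4.36 for Gfra1 with scaling to the listed sum, TMM and DESeq2 size factors, against 1.21 and 1.25 in raw counts. In raw counts without single Yaf2KO libraries it was 1.01 to 1.21 and 1.03 to 1.25. The count of genes with separate groups was 453 in raw counts and 65 in listed CPM. These last 2 comparisons were added after seeing the data.

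The 3 called genes became 314 at equal depth, 15 without a low-count filter (more genes are tested), 10 with DESeq2 and 0 with limma-voom (14 at an unadjusted p under 0.05). Leaving out libraries gave 0 to 11. It was 11 without Yaf2KO 1, 1 without Yaf2KO 2, and 0 without wild type 1, 2 or 3, where 17, 16 and 21 genes had an unadjusted p under 0.05. The cause was not tested for the others. With the replicate number as a block 0 were called (18 at an unadjusted p under 0.05), with Csn3 at 3.38 and Gfra1 at 2.38. Same-numbered libraries share only a number, with deviations correlated at 0.02, 0.14 and 0.14, against -0.33 to 0.23 between differently numbered ones. With 3 to 16 wild-type reads per library, counting error limits the size of each fold change.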
